A study of Mus musculus with 9 samples.

Results

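The 46 genes described here are interferon-stimulated genes, which cells switch on when an interferon binds its receptor. They were taken by symbol from the deposited table of 48709 mouse genes, and each of the 46 symbols was found there. The table holds RNA-seq values of CD8+ T cells, the cytotoxic arm of the T lymphocytes. In the OVA/Citra group the cells received OVA peptide, a model antigen from chicken ovalbumin, together with citraconate, a small dicarboxylate related to itaconate. In the OVA group they received the peptide alone, and the control group (CTRL) had no peptide. Each group has 3 libraries. No group received citraconate without peptide, and neither dose, time, mouse strain nor age is given in the sources used here. By the labels these were "PAS-T cells", a name left undefined, except that OVA/Citra replicate 1 is said to come from OVA-stimulated T cells. No source used here says whether replicates came from different cultures or animals. The p-values thus reflect only the spread between these libraries, which may be technical.

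Type I interferons signal through IFNAR1 and IFNAR2, the kinases JAK1 and TYK2, and a transcription factor complex that binds a DNA element called ISRE. Interferon gamma, which activated CD8+ T cells secrete, signals through IFNGR1 and IFNGR2 to factors that bind an element called GAS. Many genes carry both elements and respond to either interferon, while immunity-related and guanylate-binding GTPases respond most strongly to interferon gamma. T cells also use members of the set apart from viral defence: Slfn2 is known to hold mouse T cells in quiescence.

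Values are in TPM, which corrects for gene length, so that levels of different genes can be set side by side. Reads worked back from the table came to 14754470 to 17384330 per library. Of the 46 genes, 39 had a mean of at least 1 TPM in some group and were tested. They were tested with limma on log2(TPM + 1) across all 9 libraries, in a fit over 11971 genes, with a gene called at an adjusted p under 0.05. On this scale the changes of low genes are understated. The 3 comparisons share libraries, so their values are set side by side and are not independent. The 11 CD8+ T cell markers examined, among them Cd3e, Cd8a and Trac, were present in every group, at 10390.3 to 11511.2 summed TPM in OVA/Citra cells, 5592.0 to 7281.3 in OVA cells and 10780.1 to 11419.4 in control cells.

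The promoters of many members hold letters that match the elements to which interferon signalling delivers its factors. RefSeq promoter windows of the GRCm38.p6 build, 250 bases before to 50 bases after the start, were found for 34 of the 46 genes. An ISRE was searched as GAAA, any 2 letters, GAAA, and a GAS as TTCNNNGAA, each on both strands. The ISRE was found in a window of 21 of the 34 genes (61.8%), against 3.99% of 27025 genes with a window. The GAS was found in a window of 29.4% of the 34 genes, against 9.55% of all genes with a window. The stretches below, printed 5′ to 3′ on the gene's strand, belong to genes whose values are described next, and capitals mark the matches. Igtp and Irgm2 are shown because both fell strongly with peptide and carry a GAS just upstream of an ISRE. In Bst2 the GAS and ISRE matches share letters, so the capitals run through both. Oas3 and Gbp2 carry an ISRE and moved in the same way as Igtp, Isg15 moved the other way, and Ifit1 and Ifit3 were low throughout.
Igtp, chr11:58199486-58199555, plus strand: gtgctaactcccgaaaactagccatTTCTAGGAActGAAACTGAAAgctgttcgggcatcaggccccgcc
Irgm2, chr11:58214877-58214947, plus strand: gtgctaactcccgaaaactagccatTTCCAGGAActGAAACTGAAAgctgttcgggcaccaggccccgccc
Bst2, chr8:71537562-71537633, minus strand: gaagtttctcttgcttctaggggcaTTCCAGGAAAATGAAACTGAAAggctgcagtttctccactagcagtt
Oas3, chr5:120777700-120777759, minus strand: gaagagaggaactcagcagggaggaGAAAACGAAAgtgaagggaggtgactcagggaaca
Gbp2, chr3:142620579-142620638, plus strand: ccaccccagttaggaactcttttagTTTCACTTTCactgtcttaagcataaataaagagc
Isg15, chr4:156200850-156200921, minus strand: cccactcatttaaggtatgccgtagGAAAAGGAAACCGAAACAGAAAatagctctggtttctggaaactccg
Ifit1, chr19:34640760-34640838, plus strand: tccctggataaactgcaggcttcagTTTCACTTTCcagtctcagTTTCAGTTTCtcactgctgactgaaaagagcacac
Ifit3, chr19:34583382-34583441, plus strand: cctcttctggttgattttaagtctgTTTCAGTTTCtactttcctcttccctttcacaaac
The match nearest the transcription start begins 34 bases upstream of it in Igtp, 64 in Irgm2, 59 in Gbp2, 75 in Oas3 and 66 in Isg15. A letter match describes the window and does not show that a factor binds there. Members with a window but no ISRE match were Oasl1, Oasl2, Ifit2, Ifi47, Isg20, Trim25, Dtx3l, Slfn1, Slfn2, Sp100, Ifi35, Ifi44 and Xaf1.

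Most of the tested genes were lower with peptide than without, while with peptide plus citraconate against peptide alone they moved in both directions. Summed over the 46 genes, the level was 1136.9, 1054.5 and 1133.9 TPM in the OVA/Citra libraries, 687.7, 637.9 and 736.4 TPM in the OVA libraries, and 1691.0, 1596.3 and 1612.4 TPM in the controls. The 3 groups did not overlap in this sum. Ifi27l2a and Slfn2 carry most of its difference between OVA/Citra and OVA. Without those 2 genes the sum ran from 711.1 to 745.6 TPM in OVA/Citra libraries, 589.3 to 605.4 in OVA libraries and 1224.9 to 1337.6 in controls. In bulk libraries, fewer cells that express a gene and less RNA per cell cannot be told apart.

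Between OVA and control cells, 26 of the 39 tested members fell (66.7%), 5 rose (12.8%) and the other 8 missed the threshold. Over all tested genes in that comparison 32.1% rose and 39.8% fell. The median log2 change was -0.78 for the members and -0.08 for all tested genes. Between OVA/Citra and OVA cells 18 rose (46.2%), 11 fell (28.2%) and 10 missed it, where 37.8% of all tested genes rose and 21.2% fell. In OVA/Citra against control cells, 3 members rose (7.7%), 22 fell (56.4%) and 14 missed it, where 33.1% of all tested genes rose and 26.3% fell.

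The median change of all tested genes was 0.12 on the log2 scale between OVA/Citra and OVA cells. Log2 changes for that comparison are therefore given below relative to this median, while the p-values test the difference as measured. Relative to it the members had a median of 0.08. The split over all genes in that comparison, 4522 higher and 2543 lower, became 3469 and 3596 when libraries were scaled by their median of ratios. The members' own split there was 17 higher and 13 lower. Where groups are said below to lie apart, the share of all tested genes that also lay apart is not given here. Between OVA and control cells 8602 of 11971 tested genes were called. Such separation describes each gene and is not read as particular to the members.

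**Figure D1:**
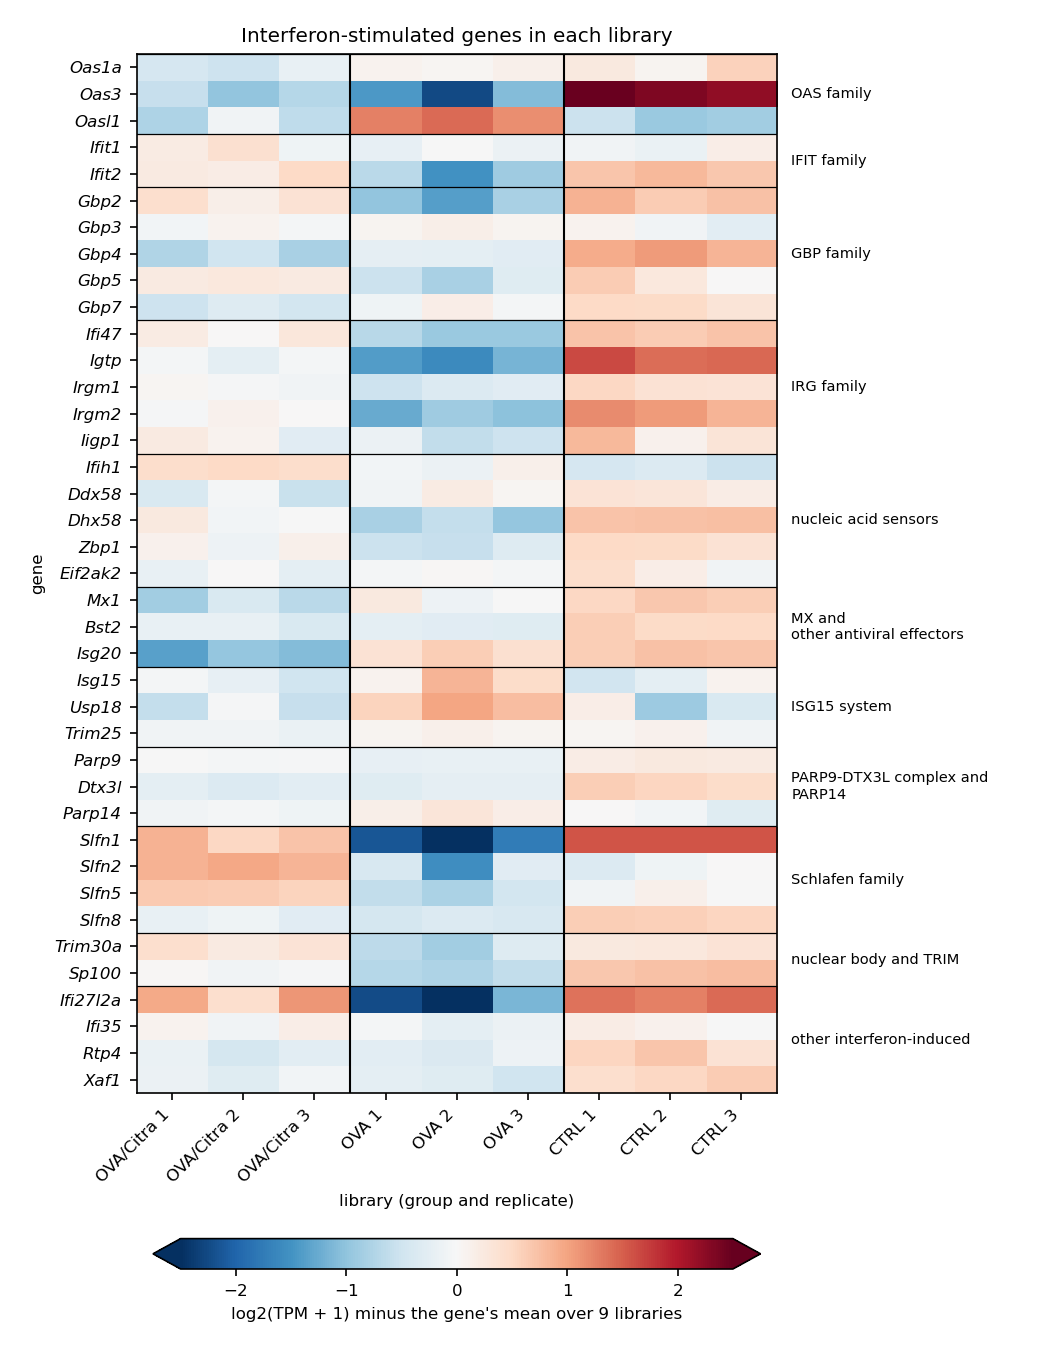
Each row is 1 of the 39 tested genes and each column 1 of the 9 libraries, in the order OVA/Citra, OVA, CTRL. Colour gives log2(TPM + 1) minus the gene's mean over the 9 libraries, and black lines separate groups and families. Oas3, Igtp, Slfn1 and Ifi27l2a are highest in the control libraries and lowest in the OVA libraries, and Oasl1 is highest in the OVA libraries.

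**Figure D2:**
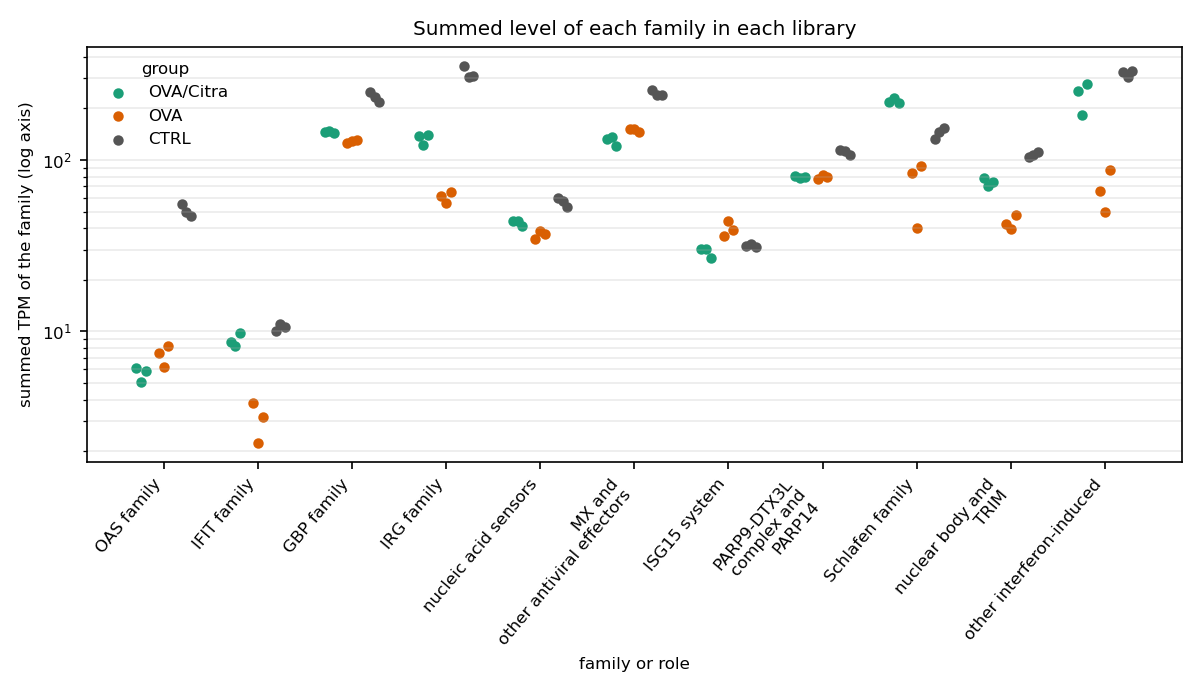
Summed TPM of each family on a log axis, with 1 point per library and groups in the order OVA/Citra, OVA, CTRL. The IRG family stands at 122.3 to 139 TPM in OVA/Citra, 55.77 to 65.43 in OVA and 303.6 to 353.8 in CTRL. The Schlafen sum, which is mostly Slfn2, is highest in OVA/Citra, while Slfn1 and Slfn8 are highest in CTRL.

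The OAS proteins sense double-stranded RNA, and several of them activate RNase L. Oas3, the most abundant of them here, stood at 5.57, 3.97 and 5.03 TPM in OVA/Citra libraries, 2.67, 1.07 and 3.68 TPM in OVA libraries, and 53.6, 48.6 and 45.1 TPM in controls. The control libraries lay far above both other groups, which did not overlap each other. Its mean was 19.9-fold lower in OVA than in control cells, a log2 change of -3.93 (SE 0.25, limma adjusted p = 4.1e-07). With citraconate it rose by 0.70 on the log2 scale relative to the median (SE 0.25, limma adjusted p = 0.0158), and it was still 10.1-fold lower than in control cells. That rise was not called without OVA/Citra replicate 1 (limma adjusted p = 0.0562).

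Oasl1, known in mouse as a brake on translation of the interferon regulator IRF7, ran the other way. It had 0.192, 0.905 and 0.296 TPM in OVA/Citra libraries, 3.82, 4.37 and 3.55 TPM in OVA libraries, and 0.398, 0.0626 and 0.111 TPM in controls. Only the OVA libraries stood high, on 64 to 73 reads each, while controls had 1 to 6 reads. It rose by a log2 of 2.05 with peptide (SE 0.19, limma adjusted p = 6.07e-06) and fell by 1.90 relative to the median with citraconate (SE 0.19, limma adjusted p = 5.18e-05). Oas1a was near 1 TPM, with a mean of 0.312 TPM in OVA/Citra, 0.8004 in OVA and 1.11 in control cells. It fell with citraconate (limma adjusted p = 0.032), a call that was lost without OVA replicate 1 (0.0734), 2 (0.0575) or 3 (0.0725) and without OVA/Citra replicate 1 (0.0813) or 2 (0.0934). Oas1a belongs to a group of related Oas1 genes, and the split of reads among them is uncertain. Oas2 and Oasl2 stayed under 1 TPM in every library and were not tested, and Oas2 was listed at 0 in all OVA libraries.

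IFIT proteins bind viral RNA and block its translation. Ifit2 had 6.02, 5.88 and 7.52 TPM in OVA/Citra libraries, 2.77, 1.11 and 2.25 TPM in OVA libraries, and 8.71, 9.52 and 8.67 TPM in controls. No groups overlapped. It fell by a log2 of 1.75 with peptide (SE 0.19, limma adjusted p = 1.63e-05) and rose by 1.21 relative to the median with citraconate (SE 0.19, limma adjusted p = 0.000231). Against control cells the OVA/Citra value was not called (log2 change -0.42, limma adjusted p = 0.0813), although it was called as lower without OVA replicate 2 (0.00947), in a fit of these groups alone (0.00919), under quantile normalization (0.0491) and in the fit of recovered reads (0.0189). Ifit1 averaged 1.22 ± 0.387 TPM in OVA/Citra, 0.798 ± 0.128 in OVA and 0.926 ± 0.239 in control cells (SD, n = 3 each) and passed in no comparison. Ifit3 had 13, 6 and 10 reads in OVA/Citra libraries, 4, 2 and 0 in OVA libraries and 3, 9 and 7 in controls, too few to be tested. Ifit3b, also untested, has in its own window the same stretch as that printed for Ifit3, and reads of this near-identical pair may be divided arbitrarily.

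Guanylate-binding proteins (GBPs) coat and open the vacuoles of intracellular microbes. All 5 passed the filter. With peptide 4 fell and 1 did not pass, while with citraconate 2 rose and 2 fell. Over all tested genes 39.8% fell with peptide, and 37.8% rose and 21.2% fell with citraconate. Gbp2 had 60.3, 49.98 and 58.3 TPM in OVA/Citra libraries, 22.1, 16.8 and 25.1 TPM in OVA libraries, and 83.3, 70.5 and 74.9 TPM in controls. The OVA libraries were lowest and the controls highest, without overlap. It fell by a log2 of 1.81 with peptide (SE 0.13, limma adjusted p = 1.05e-06) and rose by 1.25 relative to the median with citraconate (SE 0.13, limma adjusted p = 2.65e-05). The remaining gap to controls was called (limma adjusted p = 0.0163), but not without control replicate 1 (0.0636) or OVA/Citra replicate 2 (0.0618).

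Gbp4 fell at both steps. Its TPM were 16.8, 20.3 and 16.1 in OVA/Citra libraries, 24.7, 24.3 and 23.9 in OVA libraries, and 56.2, 62.1 and 53.5 in controls. Each group lay apart from the others, in falling order from control to OVA to OVA/Citra. The log2 change was -1.20 with peptide (SE 0.09, limma adjusted p = 1.1e-06) and -0.56 relative to the median with citraconate (SE 0.09, limma adjusted p = 0.00178). Gbp7 did likewise, at 33.4 TPM in OVA/Citra, 45.7 in OVA and 61.8 in control cells. Gbp5, which takes part in inflammasome activation, averaged 8.14 ± 0.171 TPM in OVA/Citra, 4.34 ± 0.942 in OVA and 8.71 ± 2.09 in control cells (SD, n = 3 each). It fell with peptide (limma adjusted p = 0.000927) and rose with citraconate (limma adjusted p = 0.0023). Gbp3, at 30.2, 32.4 and 28.7 TPM in the same order of groups, passed in no comparison. It was called higher with peptide without control replicate 1 (0.0174). Under median-of-ratios scaling, quantile normalization and the fit of recovered reads it was called higher with peptide and lower with citraconate.

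All 5 immunity-related GTPases (IRGs), which act with the GBPs against vacuolar parasites in mouse, were tested. With peptide 5 of 5 fell, and with citraconate 4 of 5 rose, or 3 of 5 under quantile normalization. Over all tested genes 39.8% fell with peptide and 37.8% rose with citraconate. Igtp, also known as Irgm3, had 81.7, 70.9 and 81.4 TPM in OVA/Citra libraries, 31.2, 27.3 and 36.7 TPM in OVA libraries, and 267, 224 and 227 TPM in controls. No library of one group reached the range of another. It was 7.53-fold lower in OVA than in control cells (log2 change -2.88, SE 0.11, limma adjusted p = 1.95e-08) and 2.46-fold higher in OVA/Citra than in OVA cells (1.15 on the log2 scale relative to the median, SE 0.11, limma adjusted p = 1.5e-05). Irgm2 had 4.78, 5.34 and 4.90 TPM in OVA/Citra libraries, 1.45, 2.16 and 1.88 TPM in OVA libraries, and 12.2, 11.2 and 9.50 TPM in controls. It held the same order, again with no overlap. Its log2 change was -2.08 with peptide (SE 0.13, limma adjusted p = 3.12e-07) and 0.97 relative to the median with citraconate (SE 0.13, limma adjusted p = 6.7e-05). Ifi47 and Irgm1 moved as Igtp did, and the citraconate call of Irgm1 was lost under quantile normalization (limma adjusted p = 0.104). Iigp1 averaged 0.792 TPM in OVA/Citra, 0.324 in OVA and 1.40 in control cells, and its citraconate difference did not pass (limma adjusted p = 0.113).

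**Figure D3:**
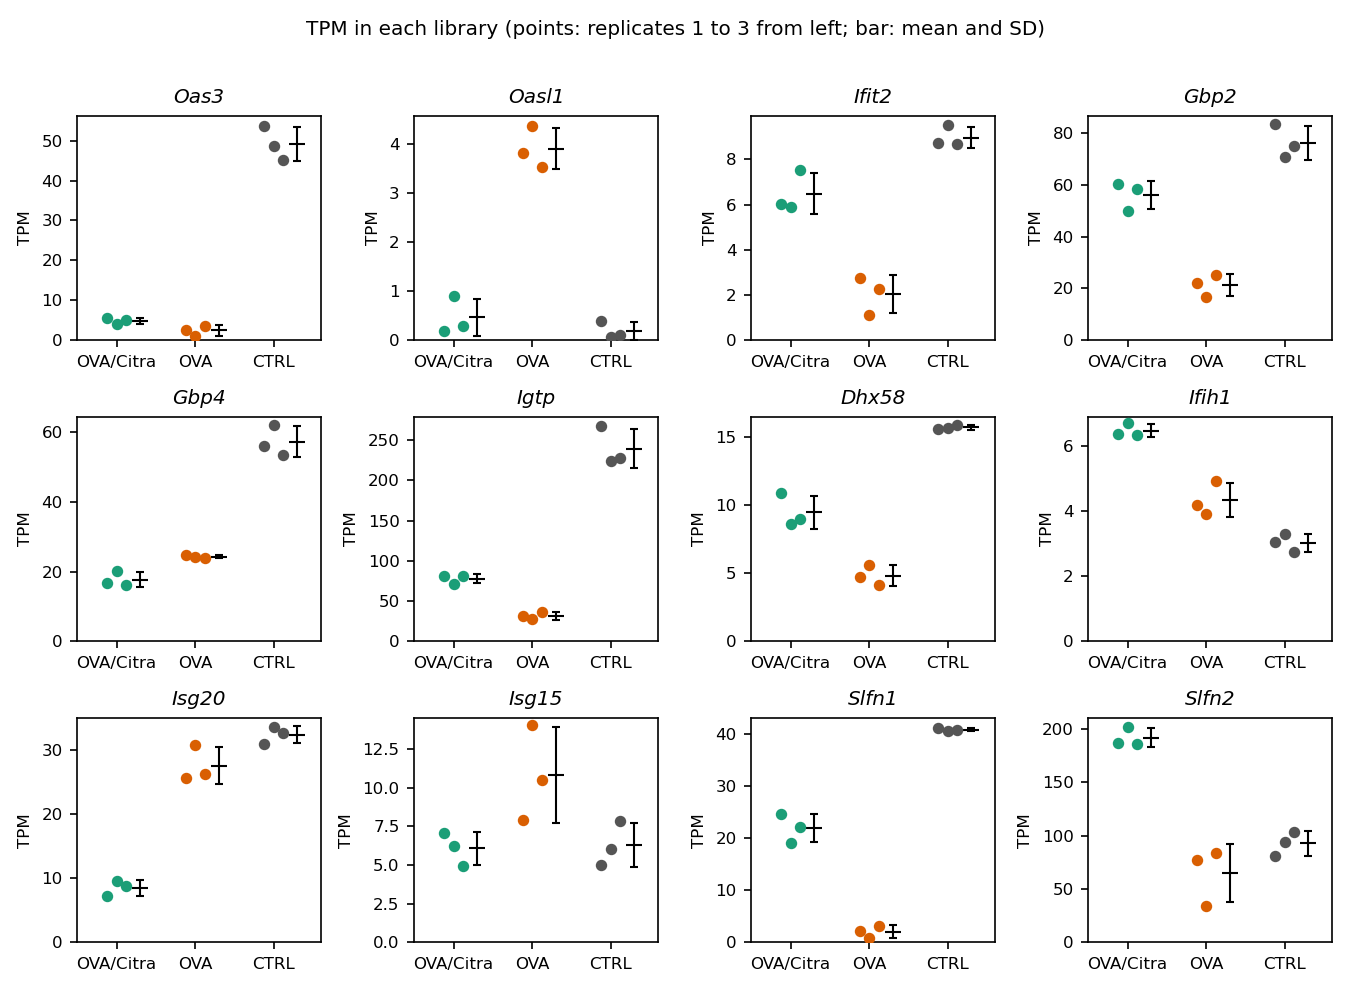
TPM of 12 members in each library, with 1 panel per gene and groups in the order OVA/Citra, OVA, CTRL. Points are replicates 1 to 3 and bars give the mean and SD of 3 libraries. Oas3, Ifit2, Gbp2, Igtp, Dhx58 and Slfn1 are lowest in OVA, Oasl1 and Isg15 are highest in OVA, and Gbp4 and Isg20 are lowest in OVA/Citra.

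The nucleic acid sensors diverged from one another. Dhx58 encodes LGP2, a modulator of the RNA helicase sensors. It had 10.9, 8.60 and 9.03 TPM in OVA/Citra libraries, 4.73, 5.63 and 4.15 TPM in OVA libraries, and 15.6, 15.7 and 15.9 TPM in controls. All groups were separate. It fell by a log2 of 1.53 with peptide (SE 0.11, limma adjusted p = 1.19e-06) and rose by 0.73 relative to the median with citraconate (SE 0.11, limma adjusted p = 0.000156). Zbp1, a Z-nucleic-acid sensor that can start necroptosis, followed the same order at 9.83, 6.56 and 13.4 TPM for OVA/Citra, OVA and control cells.

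Ifih1 encodes MDA5, a sensor of long double-stranded RNA, and it was the member that rose in all 3 comparisons. It had 6.38, 6.71 and 6.36 TPM in OVA/Citra libraries, 4.18, 3.92 and 4.92 TPM in OVA libraries, and 3.05, 3.30 and 2.74 TPM in controls. OVA/Citra libraries were highest and controls lowest, without overlap. Its log2 change was 0.40 with peptide (SE 0.11, limma adjusted p = 0.00594) and 0.37 relative to the median with citraconate (SE 0.11, limma adjusted p = 0.00275). Ddx58 encodes RIG-I, a sensor of short RNA with a triphosphate end. Its TPM were 8.71, 11.3 and 7.63 in OVA/Citra libraries, 10.8, 13.6 and 12.1 in OVA libraries and 15.1, 14.5 and 13.4 in controls. OVA/Citra replicate 2 lay within the OVA range, and the call of a fall with citraconate (limma adjusted p = 0.0296) was lost without OVA replicate 2 (0.0948) or 3 (0.055), without OVA/Citra replicate 1 (0.0832) or 3 (0.115), and in a fit of these groups alone (0.0607). Eif2ak2 encodes PKR, which shuts down translation, and passed in no comparison, at 8.02, 8.704 and 10.2 TPM for OVA/Citra, OVA and control cells. Without control replicate 3 it was called lower than in control cells in OVA/Citra (limma adjusted p = 0.0124) and in OVA cells (0.0331). In OVA/Citra against control cells it was also called lower without OVA/Citra replicate 2 (0.049), under median-of-ratios scaling (0.0365), quantile normalization (0.0296) and the fit of recovered reads (0.0272).

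The sums of the OAS, IFIT, GBP and sensor subgroups, in that order, were 5.69, 8.89, 146 and 43.1 TPM in OVA/Citra cells, against 7.31, 3.07, 128 and 36.6 TPM in OVA cells. In control cells the same sums were 50.6, 10.6, 233 and 56.7 TPM. The OVA/Citra ranges lay below those of OVA for OAS, and above them for IFIT, GBP and sensors. The OAS sum is carried by Oas3 in control cells and by Oas3 and Oasl1 together in OVA cells. The higher GBP sum of OVA/Citra is that of Gbp2: the other 4 GBPs summed to 85.16 to 96.94 TPM in OVA/Citra libraries, 102.7 to 112.6 in OVA libraries and 142.6 to 164.3 in controls. No test of the difference between subgroups was made.

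Among the effectors that act on virus particles or RNA, Bst2 encodes tetherin, which holds budding virions at the cell surface. It had 122, 122 and 107 TPM in OVA/Citra libraries, 117, 115 and 113 TPM in OVA libraries, and 213, 194 and 196 TPM in controls. The peptide-treated groups overlapped each other and lay below the controls. It fell by a log2 of 0.80 with peptide (SE 0.06, limma adjusted p = 1.56e-06), and the citraconate difference was -0.10 relative to the median (SE 0.06, limma adjusted p = 0.782). Isg20, a nuclease of single-stranded RNA, had 7.16, 9.61 and 8.81 TPM in OVA/Citra libraries, 25.6, 30.8 and 26.3 TPM in OVA libraries, and 30.9, 33.5 and 32.6 TPM in controls. Here the OVA/Citra libraries stood apart, far below the other two groups. It fell by 1.71 relative to the median with citraconate (SE 0.11, limma adjusted p = 6.09e-06), and with peptide it did not pass (log2 change -0.23, limma adjusted p = 0.0758), although it was called lower without OVA replicate 2 (0.0265) or OVA/Citra replicate 1 (0.0366) and in a fit of these groups alone (0.0382). Mx1, a dynamin-like GTPase that blocks influenza virus, fell at each step, at 3.48 ± 0.765 TPM in OVA/Citra, 6.12 ± 0.991 in OVA and 9.48 ± 0.539 in control cells (SD, n = 3 each). Its limma adjusted p was 0.00462 with peptide and 0.00235 with citraconate. Mx2 and Rsad2 (viperin) had means under 1 TPM in every group and were not tested.

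ISG15 is a ubiquitin-like protein that is joined to other proteins; USP18 removes it and also restrains IFNAR2, and TRIM25 is an ISG15 and ubiquitin ligase that acts on RIG-I. Usp18 had 0.537, 1.27 and 0.554 TPM in OVA/Citra libraries, 2.42, 3.58 and 2.95 TPM in OVA libraries, and 1.61, 0.234 and 0.776 TPM in controls. The OVA libraries stood above both other groups, which overlapped. It rose by a log2 of 1.14 with peptide (SE 0.26, limma adjusted p = 0.00285) and fell by 1.29 relative to the median with citraconate (SE 0.26, limma adjusted p = 0.00355). Isg15 itself had 7.05, 6.24 and 4.91 TPM in OVA/Citra libraries, 7.90, 14.0 and 10.5 TPM in OVA libraries, and 5.03, 6.04 and 7.83 TPM in controls. OVA replicate 1 was only just above the highest control, and each library had 22 to 68 reads. It rose with peptide (log2 change 0.68, SE 0.20, limma adjusted p = 0.0123), but without control replicate 1 the adjusted p was 0.0523. It fell with citraconate by 0.84 relative to the median (SE 0.20, limma adjusted p = 0.0118). Trim25 averaged 22.2 TPM in OVA/Citra, 25.8 in OVA and 24.5 in control cells. It fell with citraconate (limma adjusted p = 0.024), a call lost without OVA replicate 2 (0.0676) or OVA/Citra replicate 3 (0.0841). Its other differences were not called as measured. It was called higher with peptide under median-of-ratios scaling (0.0453), the fit of recovered reads (0.0395) and removal of the granzymes (0.034). In OVA/Citra against control cells it was called lower without control replicate 3 (0.0383), under median-of-ratios scaling (0.0434), quantile normalization (0.025) and the fit of recovered reads (0.029).

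PARP9 and DTX3L form a complex of a macrodomain protein and a ubiquitin ligase, and PARP14 is a mono-ADP-ribosyltransferase. Dtx3l had 33.2, 31.1 and 32.6 TPM in OVA/Citra libraries, 32.1, 33.9 and 33.8 TPM in OVA libraries, and 61.0, 57.6 and 54.8 TPM in controls. Both peptide groups overlapped and lay below the controls, with a log2 change of -0.78 for OVA (SE 0.06, limma adjusted p = 1.32e-06). The citraconate difference of Dtx3l was not called as measured (limma adjusted p = 0.562) and was called as lower under quantile normalization (0.0188), median of ratios (0.0141) and the fit of recovered reads (0.014). Parp9, whose product is its partner, averaged 36.0 TPM in OVA/Citra, 32.0 in OVA and 42.9 in control cells. It fell with peptide (limma adjusted p = 3.64e-05), and its citraconate difference was 0.04 relative to the median, a rise called as measured (limma adjusted p = 0.0161) and lost under scaling by median of ratios, quantile normalization, the fit of recovered reads and removal of the granzymes. That call was also lost without OVA replicate 1 (0.0509) or OVA/Citra replicate 1 (0.0532). Parp14 averaged 11.3 TPM in OVA/Citra, 14.0 in OVA and 11.03 in control cells, higher with peptide (limma adjusted p = 0.01) and lower with citraconate (0.0228). The second call was lost without OVA replicate 2 (0.0784) and without OVA/Citra replicate 1 (0.057) or 3 (0.0654).

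Schlafen genes, some of which regulate T cell quiescence in mouse, held large rises with citraconate, in Slfn1 and Slfn2. Slfn1 had 24.6, 19.2 and 22.1 TPM in OVA/Citra libraries, 2.22, 0.837 and 3.18 TPM in OVA libraries, and 41.2, 40.7 and 40.9 TPM in controls. OVA libraries were far below both other groups, which did not overlap. It was 19.7-fold lower in OVA than in control cells (log2 change -3.85, SE 0.24, limma adjusted p = 3.76e-07) and 10.6-fold higher in OVA/Citra than in OVA cells (2.85 on the log2 scale relative to the median, SE 0.24, limma adjusted p = 1.13e-05). Its lower level in OVA/Citra than in control cells (limma adjusted p = 0.0097) was not called with a pseudocount of 0.1 (0.0529).

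Slfn2, the most abundant Schlafen gene, had 187, 202 and 186 TPM in OVA/Citra libraries, 76.9, 34.2 and 84.2 TPM in OVA libraries, and 80.6, 94.5 and 103 TPM in controls. OVA/Citra libraries lay above both other groups, which overlapped, and OVA replicate 2 was the lowest library. It rose with citraconate by 1.52 relative to the median (SE 0.27, limma adjusted p = 0.000514) and was 2.06-fold higher than in control cells (limma adjusted p = 0.00701). The peptide difference did not pass (log2 change -0.60, SE 0.27, limma adjusted p = 0.0676), but was called without OVA replicate 1 (0.0418) or without OVA replicate 3 (0.0164). Slfn5 rose to 1.86 ± 0.0952 TPM in OVA/Citra, against 0.212 ± 0.144 in OVA and 0.874 ± 0.147 in control cells (SD, n = 3 each), on 50 to 51 reads per OVA/Citra library. Slfn8, a close copy of Slfn9 whose reads may be shared, averaged 5.42, 4.56 and 9.93 TPM for OVA/Citra, OVA and control cells, and fell with peptide (limma adjusted p = 3.89e-06).

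Sp100 is a nuclear body protein that restrains viral DNA, and Trim30a dampens inflammatory signalling in mouse. Sp100 had 50.9, 46.8 and 49.0 TPM in OVA/Citra libraries, 30.04, 28.7 and 32.0 TPM in OVA libraries, and 80.2, 82.9 and 85.7 TPM in controls. The groups were well separated. It fell by a log2 of 1.43 with peptide (SE 0.06, limma adjusted p = 3.15e-08) and rose by 0.55 relative to the median with citraconate (SE 0.06, limma adjusted p = 1.77e-05). Trim30a averaged 25.7 ± 1.70 TPM in OVA/Citra, 13.04 ± 2.70 in OVA and 24.8 ± 1.01 in control cells (SD, n = 3 each), falling with peptide (limma adjusted p = 7.72e-05) and rising with citraconate (0.000122).

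Ifi27l2a is a strongly interferon-induced gene with related genes, among which reads may be divided. It had the largest rise of the members with citraconate on the log2(TPM + 1) scale, within its SE of that of Slfn1. By the ratio of means the rise was 7.22-fold, below those of Slfn1 (10.6-fold) and Slfn5 (8.74-fold). Its TPM were 205, 142 and 227 in OVA/Citra libraries, 21.5, 11.1 and 46.8 in OVA libraries, and 273, 253 and 284 in controls. OVA libraries lay far below the rest and spread widely, and OVA/Citra libraries lay below the controls without overlap. That last difference was not called (log2 change -0.52, limma adjusted p = 0.271), except in a fit of these groups alone (0.0132) and in the fit of recovered reads (0.0197). Ifi27l2a was 10.2-fold lower in OVA than in control cells (log2 change -3.52, SE 0.39, limma adjusted p = 1.78e-05) and rose by 2.88 relative to the median with citraconate (SE 0.39, limma adjusted p = 0.000128). Xaf1, an antagonist of the apoptosis inhibitor XIAP, averaged 2.37 TPM in OVA/Citra, 1.98 in OVA and 4.47 in control cells, and fell with peptide (limma adjusted p = 8.65e-05). Rtp4, a chaperone known to curb type I interferon responses, fell likewise at 0.203, 0.234 and 1.13 TPM for OVA/Citra, OVA and control cells. Ifi35 averaged 44.5, 38.8 and 45.7 TPM in the same order, and its peptide call (limma adjusted p = 0.0301) was lost in 8 of 20 settings, among them leaving out control replicate 1 (0.107) or 2 (0.076) and OVA replicate 2 (0.0945) or 3 (0.057). Ifi44 was listed at 0 in all OVA/Citra libraries and untested.

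**Figure D4:**
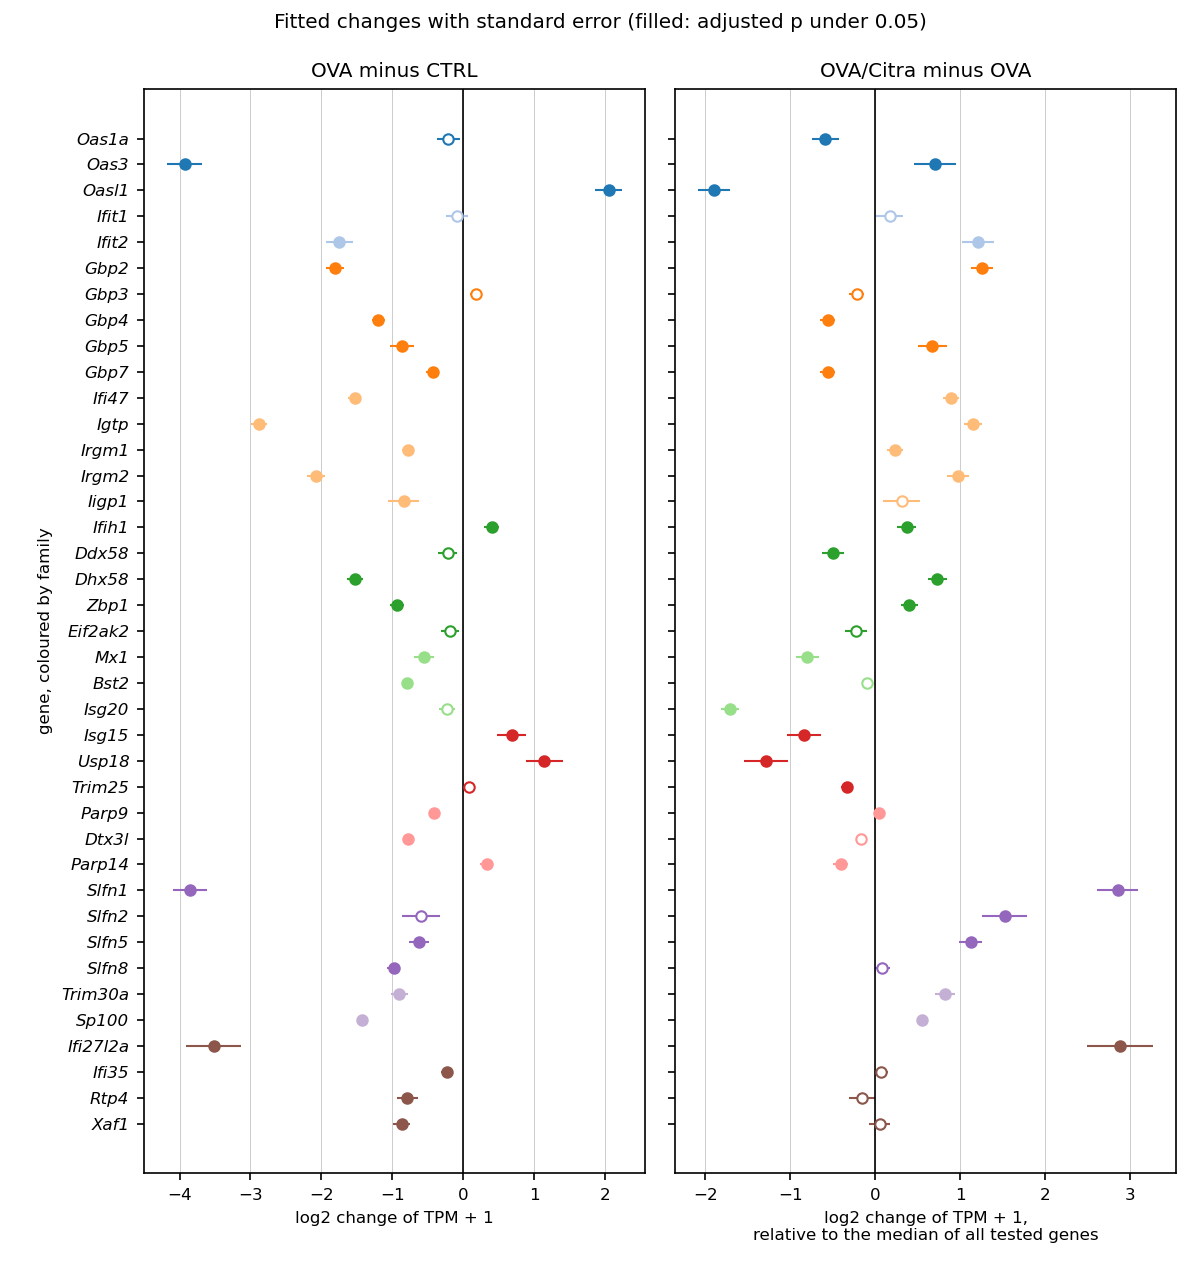
Fitted log2 changes of the 39 tested genes with standard errors, OVA minus CTRL on the left and OVA/Citra minus OVA, relative to the median of all tested genes, on the right. Filled points passed an adjusted p under 0.05. On the left 26 of the filled points lie below 0 and 5 above it, and on the right the largest fitted rises are Ifi27l2a and Slfn1 and the largest falls Oasl1 and Isg20.

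The interferon genes and the signalling chain moved in ways that differ between levels. Of the 10 interferon ligand genes examined, Ifng alone passed the filter. It had 424, 619 and 447 TPM in OVA/Citra libraries, 962, 541 and 1023 TPM in OVA libraries, and 68.4, 82.3 and 86.2 TPM in controls. Peptide-treated libraries were all far above the controls, and OVA/Citra and OVA overlapped because of OVA replicate 2. Ifng rose by a log2 of 3.35 with peptide (SE 0.23, limma adjusted p = 6.29e-07) and fell by 0.85 relative to the median with citraconate (SE 0.23, limma adjusted p = 0.0187). The second call was lost without OVA replicate 1 (0.071) or 3 (0.0634) and without OVA/Citra replicate 1 (0.0688) or 3 (0.0629). The type I genes Ifna1, Ifna2, Ifna5 and Ifnb1 were listed at 0 in every library.

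Of 6 receptor genes, 5 were tested. All 5 fell with peptide and all 5 rose with citraconate. Over all tested genes 32.1% rose and 39.8% fell with peptide, and 37.8% rose and 21.2% fell with citraconate. The counts of this and the following lists are to be read beside those shares, and no list was tested against them. Ifngr1 had 253, 202 and 244 TPM in OVA/Citra libraries, 130, 118 and 139 TPM in OVA libraries, and 445, 475 and 450 TPM in controls, so the groups were separate. Its log2 change was -1.82 with peptide (SE 0.09, limma adjusted p = 6.9e-08) and 0.72 relative to the median with citraconate (SE 0.09, limma adjusted p = 3.57e-05). Ifnar2 averaged 16.8, 5.19 and 27.3 TPM for OVA/Citra, OVA and control cells, 5.25-fold lower with peptide. Il10rb, which also serves the lambda interferon receptor, averaged 17.0, 5.01 and 16.9 TPM in that order.

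Of 5 transducers, 1 rose and 3 fell with peptide, and 2 rose and 2 fell with citraconate. Irf9 averaged 7.96, 5.25 and 14.0 TPM and Stat2 6.40, 8.12 and 15.2 TPM in OVA/Citra, OVA and control cells, so that Irf9 was lowest in OVA cells and Stat2 lowest in OVA/Citra cells. The fall of Stat2 with citraconate (limma adjusted p = 0.0166) was lost without OVA replicate 3 (0.054) or OVA/Citra replicate 1 (0.0651). Tyk2, a kinase of the type I receptor, rose with peptide, at 68.3, 67.5 and 42.4 TPM in the same order of groups. Jak2 averaged 60, 31.3 and 42.1 TPM in that order. Of 11 sensor adaptors and kinases, 8 were tested. With peptide 1 rose and 5 fell, or 1 and 3 under median-of-ratios scaling. With citraconate 3 rose and 3 fell, or 3 and 4 under that scaling. Nlrc5 averaged 29.6, 18.9 and 56.1 TPM and Mavs 16.9, 28.85 and 19.1 TPM in OVA/Citra, OVA and control cells.

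Irf8 and Irf1, both interferon regulatory factors, moved in opposite directions. Irf8 had 189, 286 and 207 TPM in OVA/Citra libraries, 446, 585 and 431 TPM in OVA libraries, and 35.3, 31.4 and 27.9 TPM in controls. No groups overlapped, with OVA highest and controls lowest. It rose by a log2 of 3.90 with peptide (SE 0.16, limma adjusted p = 3.08e-08) and fell by 1.23 relative to the median with citraconate (SE 0.16, limma adjusted p = 0.000254). Irf1 averaged 68.2, 21.6 and 125 TPM for OVA/Citra, OVA and control cells, 5.80-fold lower with peptide (limma adjusted p = 2.47e-07). Socs1, an inhibitor of JAK kinases, averaged 68.3, 18.8 and 83.3 TPM in that order, and of 7 such negative regulators 6 fell with peptide and 4 rose with citraconate. Among 32 further interferon-stimulated genes, 29 were tested; 22 fell and 1 rose with peptide, and 19 rose and 5 fell with citraconate. Their summed level was lower with citraconate, at 2975.9 to 3300.9 TPM in OVA/Citra, 4293.1 to 5139.0 in OVA and 7136.0 to 7923.6 in control libraries. That sum is dominated by Ifitm1 (355, 1704 and 3036 TPM in OVA/Citra, OVA and control cells) and Ifitm2 (464, 1207 and 1340 TPM), which encode membrane proteins that block virus entry. Without both it was 2207.5 to 2387.5 TPM in OVA/Citra, 1770.3 to 1865.1 in OVA and 3131.4 to 3212.2 in control libraries. Epsti1 had the smallest adjusted p of them, at 204, 80.3 and 434 TPM for OVA/Citra, OVA and control cells. Of the members' paralogs, 26 were found and 20 tested, and with peptide 16 fell and 1 rose, Tgtp1 and Gbp11 among those that fell. With citraconate 8 rose, 4 fell and 8 missed the threshold, where 37.8% of all tested genes rose and 21.2% fell. Tgtp1 averaged 15.5, 2.76 and 49.9 TPM and Gbp11 0.409, 0.509 and 12.4 TPM in OVA/Citra, OVA and control cells.

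**Figure D5:**
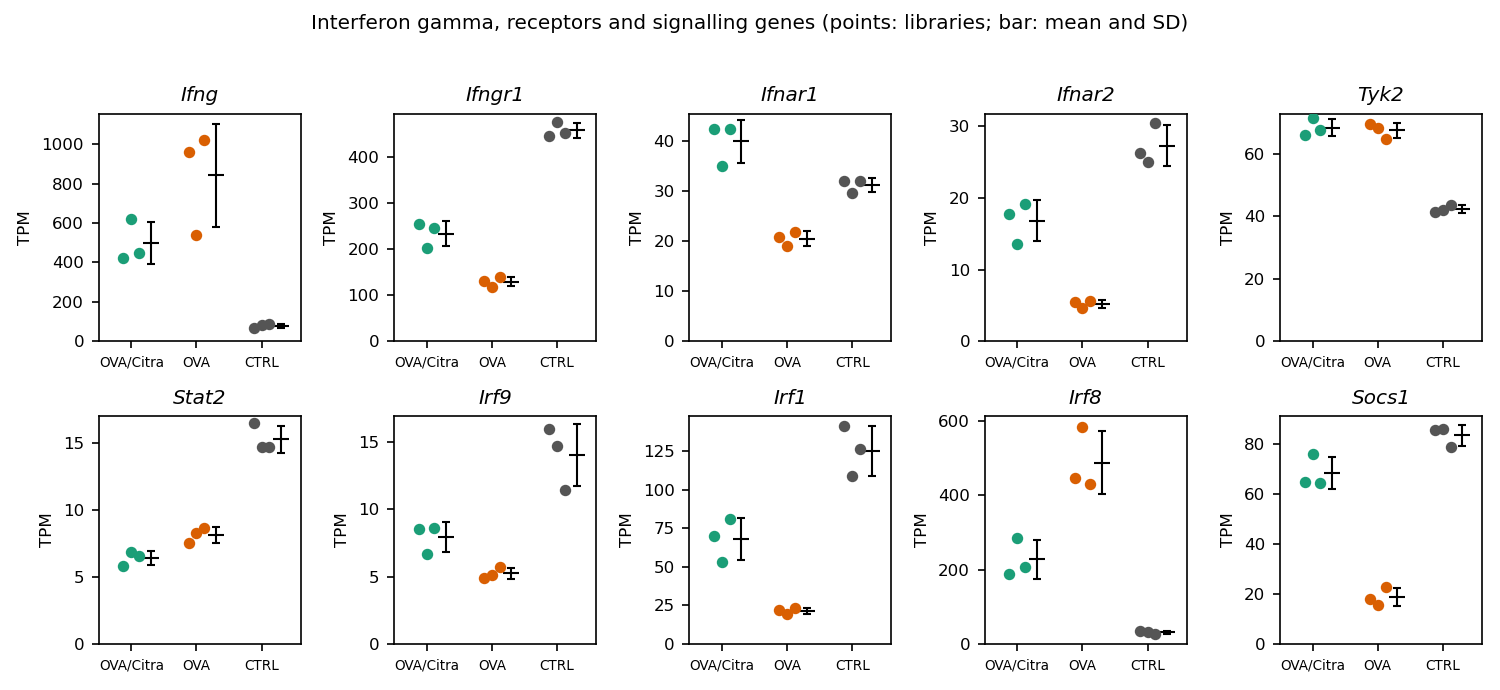
TPM of interferon gamma, 3 receptor chains and 6 signalling genes in each library, groups in the order OVA/Citra, OVA, CTRL, with mean and SD of 3 libraries at the right of each group. Ifng and Irf8 are highest in OVA, the receptors, Irf9, Irf1 and Socs1 are lowest in OVA, Tyk2 is lowest in CTRL, and Stat2 is lowest in OVA/Citra.

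Markers of T cells and of other cell types moved with the groups. Of 11 CD8+ T cell markers 10 fell with peptide and 10 rose with citraconate, as the sums given above show. Over all tested genes 39.8% fell with peptide and 37.8% rose with citraconate. B cell markers summed to 0 to 0.596 TPM in OVA/Citra, 0.440 to 1.11 in OVA and 13.4 to 15.1 in control libraries, with Ms4a1 at 0 in every OVA/Citra library and Cd79b the most abundant. Genes listed as natural killer cell markers, 5 of 5, were higher in both peptide groups than in controls. They summed to 112.5 to 153.3 TPM in OVA/Citra, 265.2 to 385 in OVA and 3.84 to 5.52 in control libraries. The sum is mostly Eomes (82.8, 177.5 and 3.35 TPM in OVA/Citra, OVA and control cells). Over all tested genes 32.1% were higher in OVA and 33.1% in OVA/Citra than in control cells. Myeloid and dendritic markers summed to 5.68 to 7.27 TPM in OVA/Citra, 8.31 to 11.1 in OVA and 2.18 to 4.85 in control libraries, 8 of 9 being in the table, and Clec9a and Cd209a were listed at 0 throughout. Cd14 carries that difference (3.57, 7.87 and 0.361 TPM in OVA/Citra, OVA and control cells), while Xcr1 ran the other way (2.78, 1.55 and 2.74 TPM), and the other 6 were not tested. Plasmacytoid dendritic cell markers summed to 4.14 to 5.02, 10.1 to 12.5 and 2.02 to 2.95 TPM in OVA/Citra, OVA and control libraries, with Siglech listed at 0 in all. That sum is nearly all Tcf4 (3.61, 10.1 and 1.94 TPM), the only one of 6 tested. The stromal and epithelial list summed to 64.38 to 84.34 TPM in OVA/Citra, 264 to 387.4 in OVA and 41.52 to 44.37 in control libraries. Its tested genes, Pecam1 (55.5, 276 and 40.6 TPM) and Epcam (15.2, 32.4 and 2.14 TPM), rose with peptide and fell with citraconate, while Krt8 was listed at 0 in every library. CD4 and regulatory T cell markers summed to 18.33 to 19.91 TPM in OVA/Citra, 19.58 to 21.43 in OVA and 53.91 to 60.76 in control libraries, mostly Zbtb7b, with Cd40lg at 25.6 TPM in control cells. Erythroid and platelet markers summed to 10.56 to 13.14, 3.475 to 5.277 and 6.717 to 9.221 TPM in that order of groups, mostly Hbb-bt. Whether these lists reflect other cells or expression by the T cells themselves was not tested. Any part of other cells in the results was not tested either.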

How the data were processed

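The authors deposited TPM for 9 libraries, 1 column each; the file name says FPKM, but columns sum to 1000000. The GRCm39 build, Salmon and Trim Galore 0.5.0 are named per the submitters' processing notes, and no annotation is given in the sources used here. Reads were worked back from TPM for depth and 1 alternative; every 1 of the 16734 genes detected in 2 or more libraries came out whole (100%, tolerance 0.0001 reads or 3e-08 of the count). On log2(TPM + 1), for genes whose mean reached 1 TPM in some group, limma 3.58.1 in R 4.3.3 (trend) was fitted to all 3 groups, with Benjamini-Hochberg adjustment over 11971 genes per comparison. The members and lists were chosen with earlier results of these data known. Genes in the text were named by a rule: per family the highest mean, the largest changes and any that ran against the family. From each pathway list it took genes with the smallest adjusted p, not all of which are described. Other genes were named after their values were seen. Some genes of the pathway and marker lists are not reported here and were left out of the counts and sums. Steps were tested on simulated data. Promoter windows are from RefSeq for GRCm38.p6, not the build of the values. Figures used matplotlib 3.10.9.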

Additional observations from a re-analysis of the deposited data

How the results depend on the processing

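Of 117 member results, 93 were run in all 20 alternative settings and 24 in 18 or 19, since a filter or a smaller set of libraries left some genes untested. Where run, 92 kept their call throughout, 25 changed in at least 1 setting, and 0 called values reversed. Members rising with peptide numbered 5, and 3 with a filter of 5 TPM, which tests fewer genes. They numbered 7 under median-of-ratios scaling, removal of the granzymes and the fit of recovered reads, and 6 under quantile normalization. Members falling with citraconate numbered 11, and 7 to 11 on leaving out single libraries, with 7 without OVA replicate 2. Under median-of-ratios scaling, quantile normalization and the fit of recovered reads 13 fell with citraconate. The shorter ISRE core was held by 67.6% of members with a window and 9.76% of all genes with a window. Whether replicate numbers pair the libraries was not settled. Same-numbered deviations correlated at -0.0121 to 0.304 and different-numbered ones at -0.254 to 0.168. With a replicate block, members called were 5 higher and 27 lower with peptide, against 5 and 26 without it, and 19 higher and 11 lower with citraconate, against 18 and 11. Isg20 was then called lower with peptide (adjusted p = 0.0276) and Iigp1 higher with citraconate (0.0486), and no other member's call changed. Values near 1 TPM rest on few reads and limit the calls there.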
